A study of Mus musculus with 24 samples.

Results

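The 6 genes described here encode enzymes tied to cytosolic NADPH in mouse liver. They are G6pdx and Pgd of the oxidative branch of the pentose phosphate pathway, Taldo1 and Tkt of its non-oxidative branch, and Me1 and Idh1, which form NADPH outside that pathway. They were chosen by name, as the rows of the count table with these symbols, and all 6 were found among its 24015 genes. Taldo1 and Tkt form no NADPH themselves, so the name NADPH-supplying fits 4 of the 6 directly.

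The RNA came from livers of female mice of the hybrid strain B6C3F1, bought at 5 to 6 weeks of age. Furan mice were gavaged with 8 mg per kg body weight of furan in corn oil each day for 21 days, control mice with the oil alone, and livers were taken 4 hours after the last dose. Every liver gave 3 pieces: 1 was snap frozen, 1 lay in formalin for 18 hours and 1 for 3 weeks before embedding in paraffin (FFPE 18 h and FFPE 3 weeks). With 4 control animals (numbers 02, 03, 04 and 06) and 4 furan animals (41 to 44) there were 6 groups of 4 libraries, all made after removal of ribosomal RNA.

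NADPH is the electron donor that keeps glutathione and thioredoxin reduced, drives many reductases and detoxifying enzymes, and builds fatty acids and sterols. Glucose 6-phosphate dehydrogenase (G6pdx) and 6-phosphogluconate dehydrogenase (Pgd) each form NADPH while turning glucose 6-phosphate into ribulose 5-phosphate. Transaldolase (Taldo1) and transketolase (Tkt) pass the resulting sugars back to glycolysis. Malic enzyme (Me1) and cytosolic isocitrate dehydrogenase (Idh1) form NADPH from malate and isocitrate. In liver, several of these genes are known targets of the oxidant-responsive factor NRF2 and of the lipogenic factors SREBP-1c and ChREBP. Furan, formed when food is heated, is oxidised in hepatocytes to a reactive aldehyde that binds glutathione.

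NRF2 binds the antioxidant response element, whose core was searched as TGACNNNGC on both strands of the 300 bases around each RefSeq gene start. Of 32851 such windows in RefSeq (GRCm38.p6), 12.4% held the core. Among the 9 windows of the 6 genes, 3 held it: the only G6pdx window, the second of 2 Pgd windows and the first of 2 Me1 windows. The stretches below are printed because they carry these matches. Each runs from 250 bases before the gene start to 30 bases after it, on the minus strand of chrX:74428851-74429130, chr4:149166053-149166332 and chr9:86695885-86696164. Capitals mark the core, which reads in the reverse direction in G6pdx.
G6pdx: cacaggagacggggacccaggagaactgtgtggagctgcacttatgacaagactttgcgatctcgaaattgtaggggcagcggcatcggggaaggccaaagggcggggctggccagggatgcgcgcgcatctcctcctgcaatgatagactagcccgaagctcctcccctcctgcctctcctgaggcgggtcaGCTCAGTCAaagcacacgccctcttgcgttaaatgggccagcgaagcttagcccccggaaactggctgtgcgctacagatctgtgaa
Pgd: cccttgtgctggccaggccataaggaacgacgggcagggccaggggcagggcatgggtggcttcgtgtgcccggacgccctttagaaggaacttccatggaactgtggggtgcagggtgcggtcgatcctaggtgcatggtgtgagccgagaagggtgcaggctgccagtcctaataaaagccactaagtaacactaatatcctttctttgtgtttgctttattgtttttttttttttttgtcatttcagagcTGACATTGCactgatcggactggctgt
Me1: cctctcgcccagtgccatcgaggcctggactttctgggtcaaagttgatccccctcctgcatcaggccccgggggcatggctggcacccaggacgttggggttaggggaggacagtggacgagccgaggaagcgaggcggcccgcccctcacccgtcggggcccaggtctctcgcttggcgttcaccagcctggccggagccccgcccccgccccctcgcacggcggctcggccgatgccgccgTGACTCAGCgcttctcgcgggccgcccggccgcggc
The G6pdx core begins 57 bases before the start, the Pgd core just after the second Pgd start, and the Me1 core spans the start. The second Pgd start lies downstream of the first, whose window (chr4:149166676-149166955, minus strand) held no core. It may belong to a transcript model that begins inside the gene, so the Pgd match may not be a promoter site. No window of Taldo1, Tkt or Idh1 held these letters. The E-box CACGTG, in 7.15% of all windows, and the sterol element TCACNCCAC, in 1.24%, were found in none of the 9. A match of letters is a description of the window. The counts are summed over each gene and do not tell which start was used.

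Library totals were 38.0 to 49.3 M (mega) counts in frozen tissue, 22.9 to 28.1 M in FFPE 18 h and 5.56 to 11 M in FFPE 3 weeks. Hepatocyte markers (Alb, Apoa1 and 4 others) summed to 132761 to 156778 CPM (counts per M of the normalised library size) in frozen, 99434 to 117874 CPM in FFPE 18 h and 60479 to 77362 CPM in FFPE 3 weeks libraries, with 0, 2 and 1 of the 6 called lower with furan in frozen, FFPE 18 h and FFPE 3 weeks tissue. The summed markers of neutrophils, lymphocytes and adipocytes reached at most 11.1 CPM. Macrophage markers were highest in control animal 04 in all 3 pieces, at 701, 505 and 517 CPM against at most 396 in the other animals. The 6 summed markers of sinusoidal endothelium were lower with furan in frozen tissue, at 459 to 499 CPM in control against 375 to 402, and in FFPE 18 h, at 533 to 582 against 449 to 462, but overlapped in FFPE 3 weeks (478 to 535 against 414 to 496), with 1, 3 and 0 of the 6 called lower. Over all genes 1.2, 7.72 and 1.51% were called lower in frozen, FFPE 18 h and FFPE 3 weeks tissue. The part of these cell types in the results below was not tested. In bulk tissue, fewer cells of a type cannot be told apart from less RNA per cell. The frozen library of control animal 03 was the highest frozen control for Taldo1 and Tkt and the lowest for Me1 and Idh1. Its Taldo1 and Me1 levels were flagged as far from the others, and those of Tkt and Idh1 were not.

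The 6 genes covered a wide range of levels per transcript length (CPM per kilobase of the longest coding transcript, mean ± SD, n = 4). In frozen control liver Idh1 was highest at 292 ± 60.1. Taldo1 at 36.9 ± 17.0, Me1 at 33.2 ± 5.04 and Tkt at 32.5 ± 12.7 followed and did not differ beyond their spread, with control 03 the high library for Taldo1 and Tkt and the low one for Me1. Pgd was lower at 5.69 ± 0.970 and G6pdx lowest at 2.87 ± 0.448, so the pair that opens the pentose phosphate pathway had the least transcript of the 6.

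Me1 stood second in FFPE 18 h control liver, at 45.9 ± 1.76, above Tkt at 26.0 ± 2.74 and Taldo1 at 23.2 ± 1.07, whose libraries overlapped. The same levels per kilobase in FFPE 3 weeks control liver were 46.9 ± 6.38 for Me1, 14.6 ± 4.30 for Tkt and 14 ± 2.76 for Taldo1. Idh1 remained highest, at 187 ± 6.29 and 207 ± 19.5. Pgd (8.81 ± 1.2 and 6.38 ± 2.78) and G6pdx (3.42 ± 0.742 and 4.29 ± 2.65) remained the lowest, and in FFPE 3 weeks these 2 did not differ beyond their spread.

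**Figure D1:**
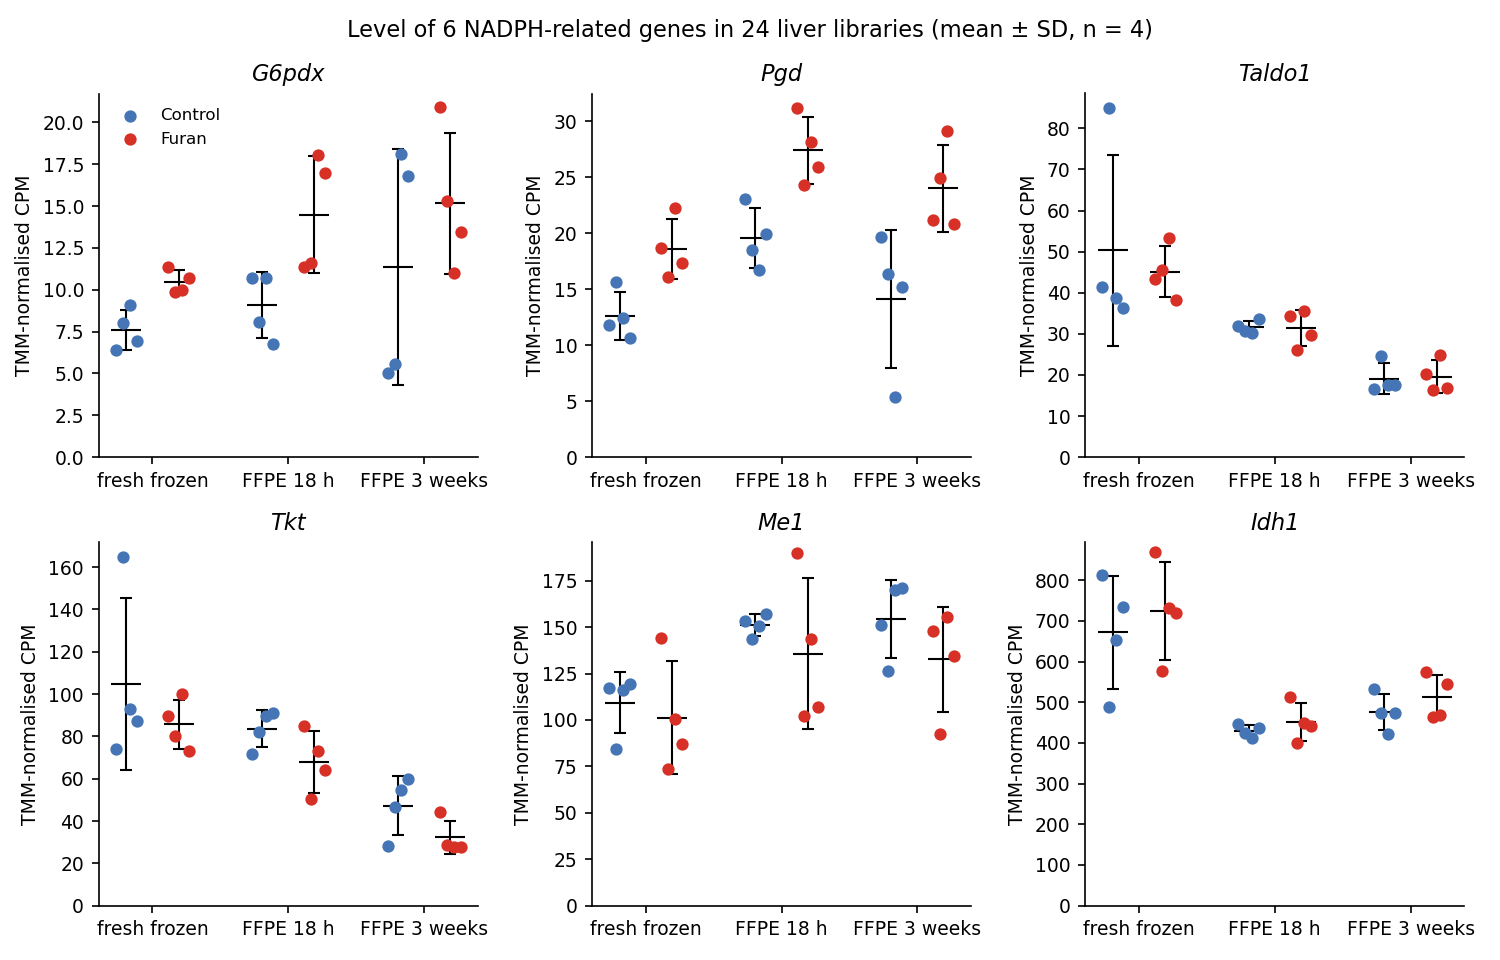
Normalised CPM of each gene (vertical axes start at 0) in every library, control in blue and furan in red, with mean ± SD of 4 animals in each of the 3 preservations. All furan libraries lie above all control libraries for G6pdx and Pgd in frozen and FFPE 18 h tissue and for Pgd in FFPE 3 weeks, while the frozen control library of animal 03 is the high point of Taldo1 and Tkt.

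The first question was whether furan changed the pair of oxidative-branch dehydrogenases. G6pdx and Pgd stood higher in all furan libraries than in any control library in frozen and in FFPE 18 h liver, by 1.37- to 1.60-fold. Both passed the test in FFPE 18 h and neither in frozen or FFPE 3 weeks tissue.

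G6pdx, the enzyme that commits glucose 6-phosphate to the pathway, had 6.39, 8.02, 9.08 and 6.96 CPM in the frozen control livers 02, 03, 04 and 06. The furan livers 41 to 44 had 11.3, 9.87, 9.99 and 10.7 CPM. The groups did not overlap, and the lowest furan value lay just above the highest control value. The difference was 1.37-fold (95% interval 1.09 to 1.73), a log2 fold change of 0.46 ± 0.15, and did not pass the edgeR test at an adjusted p below 0.05 (adjusted p = 0.136).

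Pgd, which forms the second NADPH of the branch, had 11.8, 15.6, 12.5 and 10.6 CPM in the same control libraries and 18.7, 16.1, 22.2 and 17.3 CPM in the furan libraries. Again no control library reached the furan range, although control 03 came close to furan 42. The difference was 1.47-fold (95% interval 1.16 to 1.86), log2 0.56 ± 0.16, with an adjusted p of 0.0880 in edgeR. The DESeq2 test called it (adjusted p = 0.0200), and without control library 03 edgeR did too, at log2 0.68 (adjusted p = 0.00378).

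In frozen liver edgeR thus called 0 of the 6 genes, 2 had an unadjusted p below 0.05, and DESeq2 called 1. Over all 14122 genes tested there, 1.57% were called higher and 1.2% lower, and 7.48% stood higher in all furan libraries than in any control library.

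Both genes rose in FFPE 18 h liver. G6pdx had 10.7, 8.09, 10.7 and 6.79 CPM in control animals and 11.3, 11.6, 18.0 and 17.0 CPM in furan animals. Furan animals 43 and 44 lay well above the rest, and 41 and 42 only just above the highest controls. The rise was 1.60-fold (95% interval 1.21 to 2.10), log2 0.67 ± 0.19 (adjusted p = 0.0231).

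Pgd had 23.0, 18.5, 16.7 and 19.9 CPM in control and 31.2, 24.3, 28.1 and 25.9 CPM in furan animals. Its control and furan ranges nearly met, at control 02 and furan 42. The rise was 1.4-fold (95% interval 1.19 to 1.65), log2 0.49 ± 0.11 (adjusted p = 0.00597).

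Thus 2 of the 6 genes were called higher and 0 lower, where 7.82% of 14204 genes were called higher, 7.72% lower, and 10.3% stood higher without overlap. The G6pdx call ended without control 03, control 06, furan 43 or furan 44, with adjusted p of 0.0825, 0.0504, 0.0797 and 0.0797. Both calls ended when libraries were thinned to the smallest total (adjusted p = 0.337 for G6pdx and 0.360 for Pgd) and when all 24 libraries shared 1 estimate of the spread (adjusted p = 0.423 and 0.465).

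The counts behind these genes were low in FFPE 3 weeks liver, 53 to 209 for G6pdx and 37 to 273 for Pgd per library. G6pdx had 5.02, 5.59, 18.1 and 16.8 CPM in control and 20.9, 15.3, 11 and 13.4 CPM in furan animals. Controls 04 and 06 lay within the furan range, and controls 02 and 03 below it. The difference was 1.34-fold (95% interval 0.748 to 2.40) (adjusted p = 0.804), an interval that includes both the frozen and the FFPE 18 h estimates.

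Pgd had 19.7, 16.4, 5.36 and 15.2 CPM in control and 21.2, 24.9, 29.1 and 20.8 CPM in furan animals, without overlap and with control 04 far below the others. The difference was 1.69-fold (95% interval 1.05 to 2.71) (adjusted p = 0.325). Fitted over all 24 libraries it passed, at log2 0.73 (adjusted p = 0.0446). Of the 6 genes in FFPE 3 weeks, edgeR called 0, 2 (Pgd and Tkt) had an unadjusted p below 0.05, and DESeq2 called 0, beside 1.07% of 12983 genes called higher, 1.51% lower and 4.18% higher without overlap.

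Whether furan acted more strongly in 1 kind of tissue was tested as a contrast of its effects, which did not pass for any of the 6 genes. For G6pdx it was 0.23 ± 0.25 (unadjusted p = 0.368) on the log2 scale for FFPE 18 h minus frozen and -0.041 ± 0.48 (unadjusted p = 0.934) for FFPE 3 weeks minus frozen. For Pgd it was -0.055 ± 0.19 (unadjusted p = 0.780) and 0.19 ± 0.38 (unadjusted p = 0.624). Over all genes the 3 such contrasts gave 0 calls among 43510 tests (0%) in edgeR. Of 14843, 14253 and 14414 genes, 239, 585 and 766 had an unadjusted p below 0.05, where chance gives about 1 in 20. A larger effect in FFPE 18 h than in frozen tissue was therefore not shown.

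**Figure D2:**
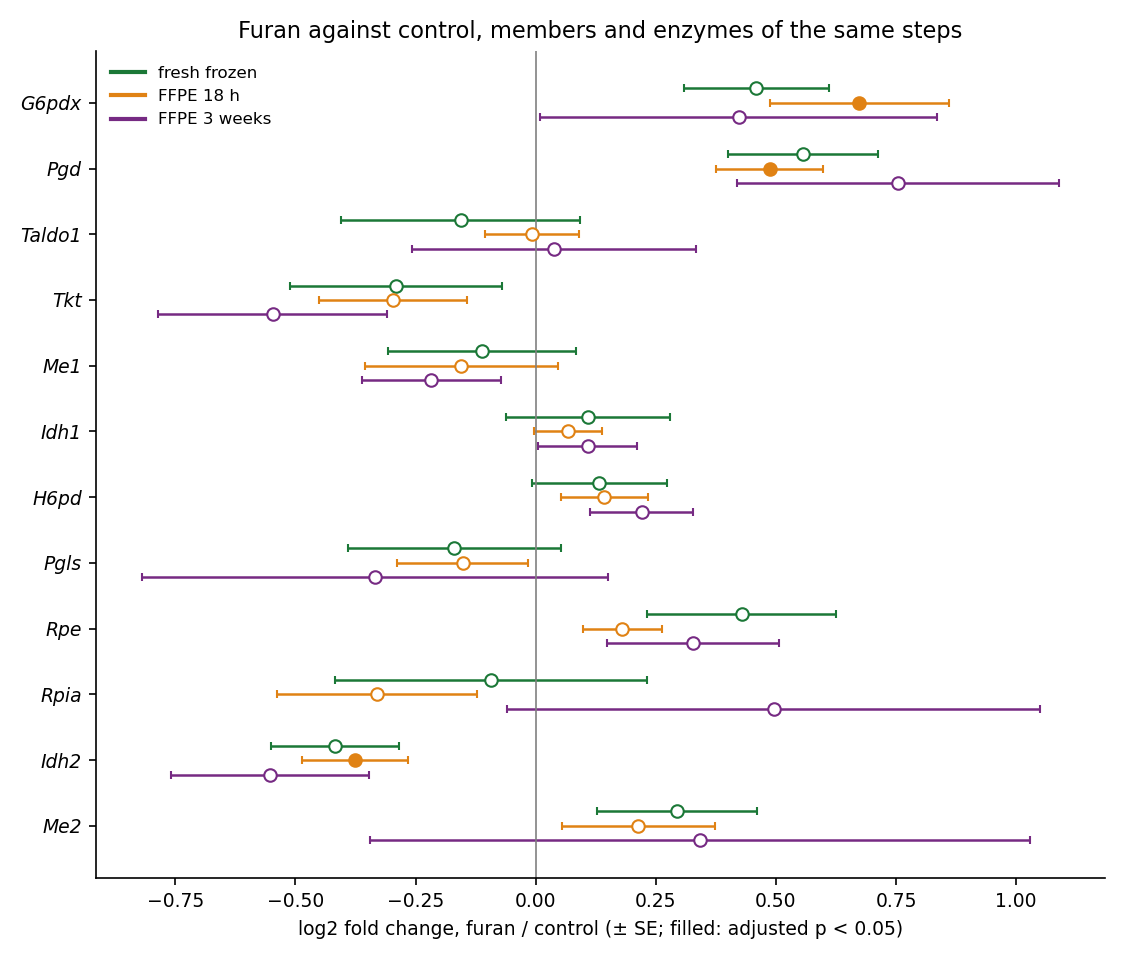
The log2 fold change of furan against control (horizontal axis, ± SE) for the 6 genes and 6 enzymes of neighbouring steps, in 3 preservations by colour, with filled points for adjusted p below 0.05. G6pdx and Pgd lie to the right of 0 in all 3 preservations and Idh2 to the left, and the filled points are those of FFPE 18 h.

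Neither gene of the non-oxidative branch passed the test. Taldo1 had 41.3, 85, 38.8 and 36.2 CPM in frozen control and 43.4, 45.6, 53.2 and 38.3 CPM in frozen furan livers, where control 03 was the single high value and the groups overlapped. The difference was 0.897-fold (95% interval 0.616 to 1.31), log2 -0.16 ± 0.25 (adjusted p = 0.775), and without control 03 its sign changed, to 0.22 (adjusted p = 0.260). The FFPE 18 h libraries were close for Taldo1, 30.3 to 33.5 CPM in control and 26.1 to 35.5 CPM in furan animals, and the 95% interval of the fold was 0.862 to 1.15. Those of FFPE 3 weeks held 16.7 to 24.7 and 16.4 to 24.9 CPM, with an interval of 0.676 to 1.56.

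Tkt, the thiamine-dependent partner of Taldo1, had a negative estimate in each preservation without passing the test. Frozen livers held 74.0, 165, 93.0 and 87.3 CPM in control and 89.7, 80.0, 99.9 and 73.0 CPM in furan animals. The frozen estimate of -0.29 ± 0.22 (adjusted p = 0.521) rested on control 03, and was 0.014 (adjusted p = 0.963) without it.

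Tkt in FFPE 18 h had 71.8, 82.3, 89.5 and 91.3 CPM in control and 85.1, 50.4, 73.0 and 63.9 CPM in furan animals, and furan 42 was lowest. The log2 difference was -0.30 ± 0.15 (adjusted p = 0.249), and it passed without furan 41, at -0.43 (adjusted p = 0.0375). The FFPE 3 weeks values were 28.1, 46.4, 54.6 and 59.7 CPM in control and 44.2, 28.9, 28.0 and 27.9 CPM in furan animals. Furan 42, 43 and 44 lay close together beside control 02, and furan 41 was apart from them. The log2 difference there was -0.55 ± 0.24 (adjusted p = 0.307).

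Me1, which links malate to NADPH for lipogenesis, varied more between furan animals than between controls. Frozen livers held 117, 84.5, 116 and 119 CPM in control and 144, 73.3, 100.4 and 87.3 CPM in furan animals. FFPE 18 h livers held 153, 143, 151 and 157 and 189.9, 102, 144 and 107 CPM. FFPE 3 weeks livers held 151, 126, 169.8 and 171 and 148, 92.5, 155 and 134 CPM. Furan animal 42 had the lowest Me1 level of all 8 animals in each of its 3 pieces, and furan animal 41 the highest in the frozen and the FFPE 18 h piece.

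The log2 differences for Me1 were -0.11 ± 0.20 in frozen (adjusted p = 0.799), -0.15 ± 0.20 in FFPE 18 h (adjusted p = 0.684) and -0.22 ± 0.14 in FFPE 3 weeks tissue (adjusted p = 0.621). The 95% intervals of the fold were 0.688 to 1.25, 0.644 to 1.25 and 0.701 to 1.06. Without furan 41 the FFPE 18 h difference passed, at -0.37 (adjusted p = 0.0293). The frozen estimate changed sign without furan 42, to 0.014 (adjusted p = 0.980).

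Idh1, the most abundant of the 6, did not pass in any preservation. Frozen livers held 812, 489, 652 and 734 CPM in control and 870.4, 577, 731 and 719.7 CPM in furan animals, with control 03 and furan 42 low. FFPE 18 h livers held 446, 425, 413 and 438 and 513, 401, 449 and 442 CPM, and FFPE 3 weeks livers 532, 475, 422 and 474 and 574, 463, 468 and 546 CPM. Control and furan libraries overlapped in all 3.

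Furan to control, Idh1 was 1.08-fold (95% interval 0.833 to 1.4) in frozen, 1.05-fold (95% interval 0.944 to 1.16) in FFPE 18 h and 1.08-fold (95% interval 0.932 to 1.25) in FFPE 3 weeks tissue. Without control 03 the frozen log2 estimate of 0.11 ± 0.17 changed sign, to -0.016 (adjusted p = 0.963). The edgeR test gave adjusted p = 0.772, 0.589 and 0.793. The upper limit of the FFPE 18 h interval, 1.16-fold, lay below the estimates for G6pdx and Pgd in the same libraries. The difference between these genes was not tested.

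The steps of G6pdx, Idh1 and Me1 have counterparts in another compartment or from another gene, and none was set beside Pgd. H6pd, the dehydrogenase of the endoplasmic reticulum, had 372 ± 44.4 CPM in frozen control and 408 ± 63.6 CPM in frozen furan livers (SD, n = 4), a log2 difference of 0.13 ± 0.14. It did not pass in any preservation (adjusted p = 0.653, 0.328 in FFPE 18 h and adjusted p = 0.396 in FFPE 3 weeks). G6pd2, a retrocopy of G6pdx, was at 0.256 ± 0.140 CPM in frozen control liver, and 7.65% of the 2603 windows of 50 bases in the G6pdx transcript also occur in it. Reads of these windows cannot be assigned to 1 of the pair, so the G6pd2 count is uncertain.

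Idh2, the mitochondrial isocitrate dehydrogenase, had a negative estimate in all 3 preservations. It went from 154 ± 24.3 to 116 ± 11.1 CPM in frozen liver, log2 -0.42 ± 0.13 (adjusted p = 0.126). It fell in FFPE 18 h from 115 ± 16.3 to 88.5 ± 11.9 CPM, log2 -0.38 ± 0.11 (adjusted p = 0.0398), with ranges of 102 to 138 and 74.8 to 102 CPM that just touched. For FFPE 3 weeks the log2 difference was -0.55 ± 0.21 (adjusted p = 0.191). Me2, a mitochondrial malic enzyme that uses mainly NAD, was at 5.7 ± 0.924 CPM in frozen control liver and did not pass in any preservation (log2 0.30 ± 0.17, 0.21 ± 0.16 and 0.34 ± 0.69). Me3 was below the low-count filter in all 3.

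Shares per kilobase put these pairs on 1 scale. Idh1 made up 83.2, 67.4, 77.0 and 76.9% of Idh1 plus Idh2 in the frozen control livers and 84.3, 81.1, 83.2 and 81.2% in the furan livers. The means were 76.1 ± 6.55% and 82.5 ± 1.55% (exact permutation p = 0.114, adjusted p = 0.214). Control 03 had the lowest share, and without it the difference of 6.33 percentage points was 3.41. The FFPE 18 h means were 74.0 ± 2.69% and 79.4 ± 1.92% (exact permutation p = 0.0571, adjusted p = 0.214), and in FFPE 3 weeks 82.6 ± 4.83% and 88.1 ± 2.37% (exact permutation p = 0.0857, adjusted p = 0.214). The FFPE 3 weeks difference of 5.48 points was 3.37 without control 06. The mean share of Idh1 was higher with furan in each preservation, and no difference passed.

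G6pdx made up 3.54 ± 0.495% of G6pdx plus H6pd in frozen control and 4.48 ± 0.880% in frozen furan livers (exact permutation p = 0.114, adjusted p = 0.214). The FFPE 18 h shares were 3.19 ± 0.500% and 4.68 ± 1.53% (exact permutation p = 0.143, adjusted p = 0.214), and the FFPE 3 weeks shares 4.86 ± 3.12% and 5.43 ± 1.38% (exact permutation p = 0.800, adjusted p = 0.800). By transcript, H6pd was thus the predominant of these 2 dehydrogenases in all groups.

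Me1 made up 93.8 ± 0.541% of Me1, Me2 and Me3 in frozen control and 91.6 ± 1.87% in frozen furan livers (exact permutation p = 0.143, adjusted p = 0.214). The shares were 94.9 ± 0.716% and 93.2 ± 1.85% in FFPE 18 h (exact permutation p = 0.229, adjusted p = 0.294) and 96.1 ± 2.67% and 94.7 ± 2.56% in FFPE 3 weeks (exact permutation p = 0.514, adjusted p = 0.579). The 9 share comparisons were adjusted together. With 4 against 4 animals, the two-sided exact test can give no p below 0.0286, and a single comparison at that floor could not have passed after adjustment over 9. None of the 9 passed.

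G6pdx, Pgd, Me1 and Idh1, the 4 that form NADPH, were also set against each other as shares of their sum per kilobase, as a description with no test. In frozen control liver Idh1 held 87.3 ± 1.54% of the sum, Me1 10.03 ± 0.760%, Pgd 1.81 ± 0.716% and G6pdx 0.899 ± 0.282%. With furan these were 88.0 ± 0.866%, 8.47 ± 1.12%, 2.37 ± 0.366% and 1.12 ± 0.144%. Idh1 dominated the sum in both groups.

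The Pgd share in FFPE 18 h was 3.59 ± 0.371% in control and 4.85 ± 0.120% in furan livers, with ranges of 3.19 to 4.08% and 4.70 to 4.98% that did not overlap. The G6pdx share was 1.4 ± 0.309% and 2.17 ± 0.583%. The Me1 share was 18.7 ± 0.598% and 15.9 ± 2.71%. After 3 weeks in formalin the Pgd share was 2.38 ± 0.954% and 3.94 ± 0.935%, and the G6pdx share 1.66 ± 1.07% and 2.04 ± 0.472%. Even with furan, the pentose phosphate pair made up a small part of the summed transcript of these 4 genes.

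**Figure D3:**
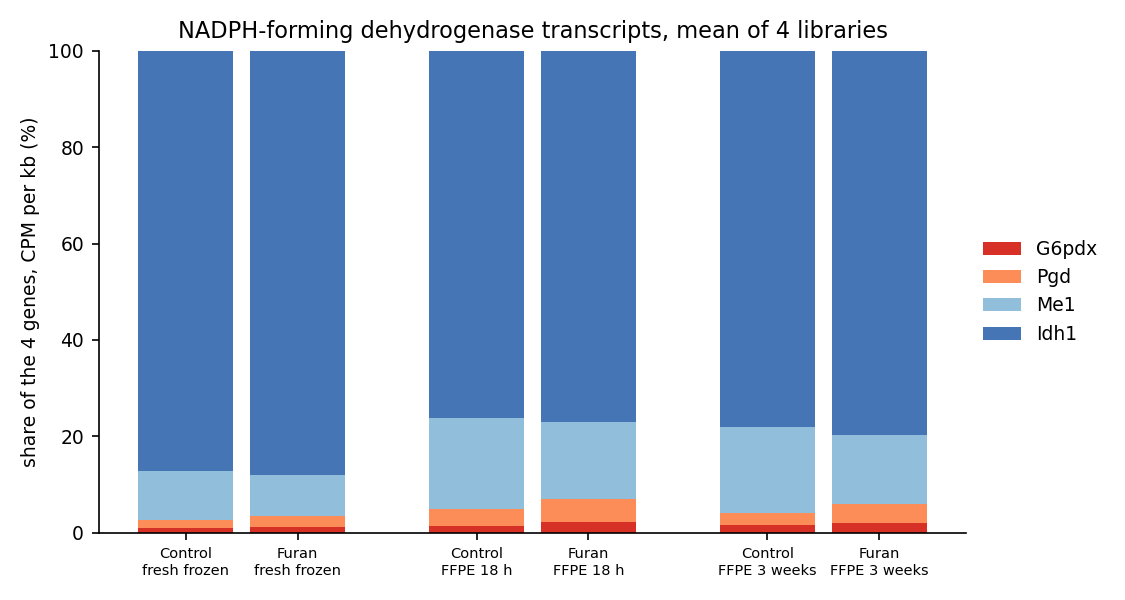
Mean share of G6pdx, Pgd, Me1 and Idh1 in their summed CPM per kilobase (vertical axis, percent) in the 6 groups of 4 libraries. Idh1 takes from 76.3 to 88.0% of each bar, and the bars for fixed tissue hold a larger Me1 part than those for frozen tissue.

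Several of the 6 genes differed between frozen and fixed tissue. Taldo1, Tkt and Idh1 were lower in fixed tissue, G6pdx and Me1 did not pass in any of the 3 comparisons, and Pgd was slightly higher in FFPE 18 h. These comparisons use the mean over both treatments, 8 against 8 libraries. Frozen RNA had integrity numbers above 8.9 and FFPE RNA 1.3 to 2.4, the kit for frozen and fixed tissue differed, and the 3-week samples used 2 sections in place of 1. Formalin, RNA quality, kit, input and piece of liver cannot be told apart. The summed hepatocyte markers given above were also lower in fixed tissue, without overlap between the 3 preservations. Most of the sum was Alb, at a mean of 59854 CPM in FFPE 3 weeks control liver, followed by Cps1 at 5735 CPM. The sums were normalised within each preservation, so they are not on the common scale of the comparisons below. Their part in these differences was not tested.

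Taldo1 fell by 0.93 ± 0.14 on the log2 scale in FFPE 18 h against frozen (adjusted p = 2.57e-05). It fell in FFPE 3 weeks by 1.72 ± 0.17 against frozen (adjusted p = 4.35e-09) and by 0.80 ± 0.13 against FFPE 18 h (adjusted p = 1.89e-05). Tkt fell by 0.66 ± 0.14 (adjusted p = 0.000717), 1.70 ± 0.17 (adjusted p = 1.86e-08) and 1.06 ± 0.14 (adjusted p = 2.23e-06) in the same 3 comparisons. Both non-oxidative enzymes thus were lower at each longer time in formalin, at 0.303 and 0.307 of the frozen level after 3 weeks.

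Idh1 fell by 0.99 ± 0.10 in FFPE 18 h against frozen (adjusted p = 6.32e-08) and by 0.92 ± 0.10 in FFPE 3 weeks against frozen (adjusted p = 2.30e-08). Between the fixation times its log2 difference was 0.062 ± 0.062 (adjusted p = 0.499), so the lower level was already present at 18 hours.

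Pgd rose by 0.27 ± 0.10 in FFPE 18 h against frozen (adjusted p = 0.0269). The call ended without animal 02, 06, 41 or 44 (adjusted p = 0.112, 0.0895, 0.0899 and 0.0591) and after thinning (0.497). Against frozen tissue, Pgd in FFPE 3 weeks differed by -0.15 ± 0.19 (adjusted p = 0.539). Between FFPE 3 weeks and FFPE 18 h the Pgd difference was -0.42 ± 0.18 (adjusted p = 0.0667). With the animal as replicate block it passed, at -0.48 ± 0.16, adjusted p = 0.0140.

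G6pdx differed by 0.029 ± 0.12, 0.13 ± 0.24 and 0.084 ± 0.24 in the 3 comparisons (adjusted p = 0.859, 0.691 and 0.838). Me1 differed by 0.11 ± 0.14, 0.022 ± 0.13 and -0.10 ± 0.12 (adjusted p = 0.509, 0.899 and 0.578). In this fit the estimates of both genes lay within 1 SE of 0 in all 3. With the animal as replicate block Me1 was at 0.12 ± 0.058, 0.032 ± 0.084 and -0.099 ± 0.064. It did not pass there either (adjusted p = 0.0918, 0.786 and 0.234).

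Of the 6 genes, 1 was called higher and 3 lower in FFPE 18 h against frozen, where 26.6% of 14843 genes were called higher and 27.3% lower. Between FFPE 3 weeks and frozen tissue 0 were higher and 3 lower, beside 23% and 25.8% of 14253 genes. Against FFPE 18 h, FFPE 3 weeks had 0 higher and 2 lower, beside 14.9% and 17.5% of 14414 genes. The medians over all genes were 0.012, -0.016 and -0.046. The GC content of the transcripts was 43.8% for Idh1 and 45.1% for Me1, and 52.6 to 54.2% for the other 4. The genes that fell were Idh1 at 43.8%, Taldo1 at 53.6% and Tkt at 54.0%. The part of GC content in these differences was not tested.

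**Figure D4:**
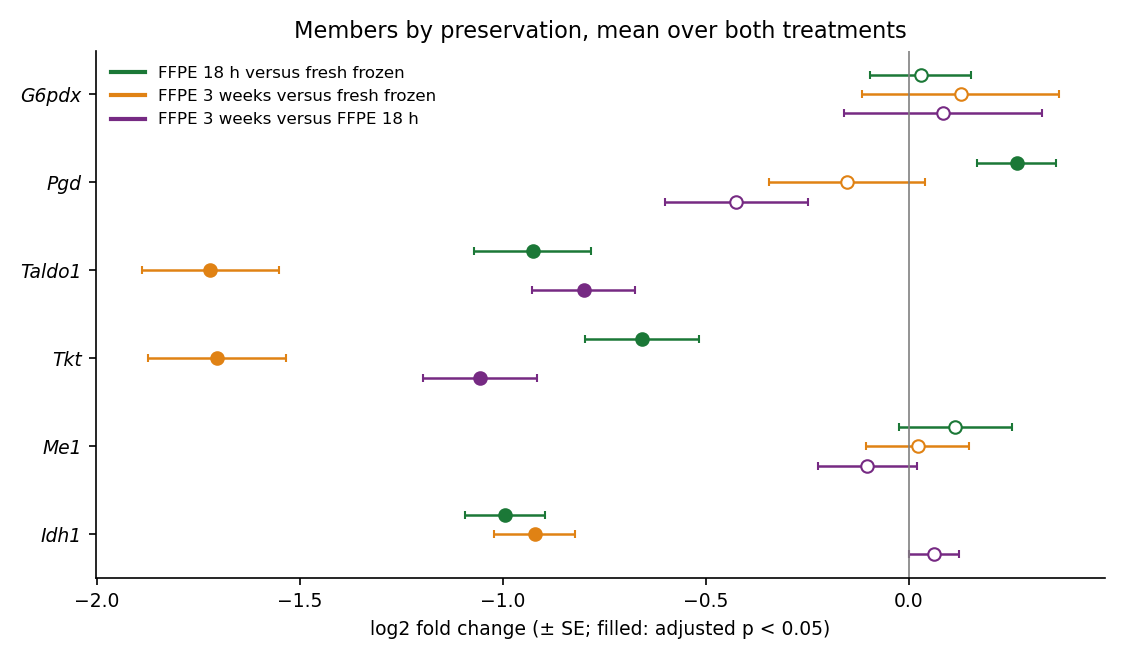
The log2 fold change between preservations (horizontal axis, ± SE, mean over both treatments) for the 6 genes, with filled points for adjusted p below 0.05. Taldo1 and Tkt lie far to the left in all 3 comparisons, Idh1 in the 2 against frozen tissue, and G6pdx and Me1 near 0.

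The rest of the pentose phosphate pathway was followed with a list of 16 genes. In frozen liver 13 were tested and edgeR called 0, with 0 at an unadjusted p below 0.05 and 0 in DESeq2. The median log2 fold change was 0.091, beside -0.015 over all genes. Pgls, the lactonase between G6pdx and Pgd, was at -0.17 ± 0.22. Rpe, the epimerase of ribulose 5-phosphate, was at 0.43 ± 0.20, and Rpia, the isomerase that makes ribose 5-phosphate, at -0.093 ± 0.32. Neither the step between the pair nor the steps after them passed the test (adjusted p = 0.727, 0.275 and 0.908).

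In FFPE 18 h 1 of 13 was higher and 1 lower, shares near the 7.82% and 7.72% of all genes. Prps1, which makes phosphoribosyl pyrophosphate from ribose 5-phosphate, rose by 0.45 ± 0.11 (adjusted p = 0.0106). Shpk, sedoheptulokinase, fell, at -0.27 ± 0.086 (adjusted p = 0.0440). Pgls was at -0.15 ± 0.14, Rpe at 0.18 ± 0.082 and Rpia at -0.33 ± 0.21, and none of these 3 passed (adjusted p = 0.512, 0.154 and 0.320). Of 12 tested in FFPE 3 weeks edgeR called 0, with 1 at an unadjusted p below 0.05 and 0 in DESeq2. The median log2 fold changes were -0.079 and 0.17, beside -0.0025 and 0.014 over all genes.

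The list of other NADPH suppliers and NAD kinases held 15 genes. It included Mdh1, Aco1 and Slc25a1, which form no NADPH themselves, and Me2, which uses mainly NAD. In frozen liver 14 of the 15 were tested. They had 0 calls in edgeR, 4 at an unadjusted p below 0.05 and 3 in DESeq2 (Mthfd2 and Glud1 higher, Nnt lower). Without frozen control 03 edgeR called 2 of them higher, Glud1 and Mthfd2. In FFPE 18 h 2 of 14 rose and 2 fell, beside 7.82% and 7.72% of all genes. Mthfd2, a mitochondrial folate dehydrogenase, rose by 1.55 ± 0.38 (adjusted p = 0.00885) from 0.662 to 1.95 CPM. Glud1, glutamate dehydrogenase, rose by 0.24 ± 0.060 (adjusted p = 0.00989), and Nnt, the mitochondrial transhydrogenase that forms NADPH from NADH, fell, at -0.27 ± 0.067 (adjusted p = 0.0106). The fourth was Idh2. Glud1 was the 1 gene of 12 called in FFPE 3 weeks, at 0.35 ± 0.084 (adjusted p = 0.0152). The median log2 fold change of the list was 0.026, -0.029 and 0.028 in the 3 preservations, near that of all genes.

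NADPH users in redox defence, 18 genes, had more calls. Over all genes 1.57, 7.82 and 1.07% were called higher in frozen, FFPE 18 h and FFPE 3 weeks tissue. The shares called lower were 1.2, 7.72 and 1.51%. In frozen liver 4 of 17 were higher and 0 lower. Nqo1, a quinone reductase, rose 2.32-fold (95% interval 1.82 to 2.96) from 11.7 to 27.1 CPM (adjusted p = 0.00311). Txnrd1, thioredoxin reductase, rose 1.56-fold (95% interval 1.35 to 1.8) from 146 to 229 CPM (adjusted p = 0.00529). The other 2 were the reductases Cbr3 and Ptgr1. Without frozen control 03, 6 of the 17 were higher and 1 lower. In FFPE 18 h 6 of 17 were higher and 3 lower, with Nqo1 at 1.25 ± 0.13 and Txnrd1 at 0.67 ± 0.060 (adjusted p = 9.22e-06 and 1.70e-06). Cryz, a quinone reductase, was among those that fell, at -0.22 ± 0.063 (adjusted p = 0.0244). In FFPE 3 weeks 2 of 16 were higher, Txnrd1 and glutathione reductase Gsr (log2 0.66 ± 0.13, adjusted p = 0.00331), and 1 was lower. The list medians were 0.18, 0.11 and 0.20.

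NRF2, its regulators and its targets outside the lists above made up a list of 30 genes. In frozen liver 8 of 27 were higher and 0 lower, with a median of 0.32. In FFPE 18 h 14 of 28 were higher and 1 lower, with a median of 0.33. In FFPE 3 weeks 6 of 27 were higher and 0 lower, also with a median of 0.33. Over all genes 1.57, 7.82 and 1.07% were called higher in the 3 preservations, and 1.2, 7.72 and 1.51% lower. Without frozen control 03, 9 of 28 were higher and 0 lower in frozen liver. The list was written with earlier results of these data known and is a description of the setting of G6pdx and Pgd.

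Nfe2l2, which encodes NRF2, went from 76.1 ± 4.36 to 116 ± 22.9 CPM in frozen liver (SD, n = 4), log2 0.61 ± 0.14 (adjusted p = 0.0436). It rose by 0.46 ± 0.081 in FFPE 18 h (adjusted p = 0.000913), and was at 0.57 ± 0.17 in FFPE 3 weeks (adjusted p = 0.0645). Its groups did not overlap in any of the 3. Keap1, which holds NRF2 in check, was at -0.026 ± 0.14, -0.19 ± 0.079 and -0.12 ± 0.22 and did not pass (adjusted p = 0.940, 0.111 and 0.931).

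Among the targets, Srxn1, sulfiredoxin, rose 2.38-fold (95% interval 1.91 to 2.96) in frozen liver (adjusted p = 0.00184), and Gclc, of glutathione synthesis, 1.73-fold (95% interval 1.4 to 2.13) (adjusted p = 0.0137). The frozen G6pdx and Pgd estimates of 1.37- and 1.47-fold (log2 0.46 and 0.56) were smaller than those of Srxn1 and Gclc. They lay above the frozen median of the whole list, log2 0.32. These differences were not tested. Slc7a11, the cystine carrier, was called in FFPE 3 weeks with no count in the 4 control libraries and a mean of 5.13 CPM with furan, and no fold is given.

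Lipogenic genes, 20 in all, had 0 higher calls. Their median log2 fold changes were -0.25, -0.23 and -0.25. Of the 20, 1, 5 and 2 were called lower, beside 1.2, 7.72 and 1.51% of all genes. Acacb, the acetyl-CoA carboxylase of mitochondria, fell in all 3, at log2 -1.13 ± 0.27 in frozen (adjusted p = 0.0488), -0.99 ± 0.15 in FFPE 18 h (adjusted p = 0.00281) and -1.0 ± 0.15 in FFPE 3 weeks tissue (adjusted p = 0.000142). Mlxipl, which encodes ChREBP, fell, at -0.44 ± 0.086 in FFPE 18 h and -0.66 ± 0.12 in FFPE 3 weeks (adjusted p = 0.00247 and 0.00120), as did Srebf1, at -0.67 ± 0.18 in FFPE 18 h (adjusted p = 0.0440). The negative estimates of Me1, a lipogenic target, did not pass beside these.

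Glycolysis and gluconeogenesis, 27 genes, had 0 higher and 1 lower of 26 in frozen liver, 1 higher and 5 lower of 26 in FFPE 18 h and 0 higher and 3 lower of 24 in FFPE 3 weeks. Over all genes 1.57, 7.82 and 1.07% were called higher and 1.2, 7.72 and 1.51% lower. Gckr, the regulator of glucokinase, fell in all 3, at log2 -0.63 ± 0.13, -0.49 ± 0.069 and -0.64 ± 0.15 (adjusted p = 0.0260, 0.000127 and 0.0115). Pcx, pyruvate carboxylase, fell, at -0.52 ± 0.073 and -0.40 ± 0.11 in fixed tissue (adjusted p = 0.000129 and 0.0495). The medians of -0.093, 0.034 and -0.088 lay near those of all genes.

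**Figure D5:**
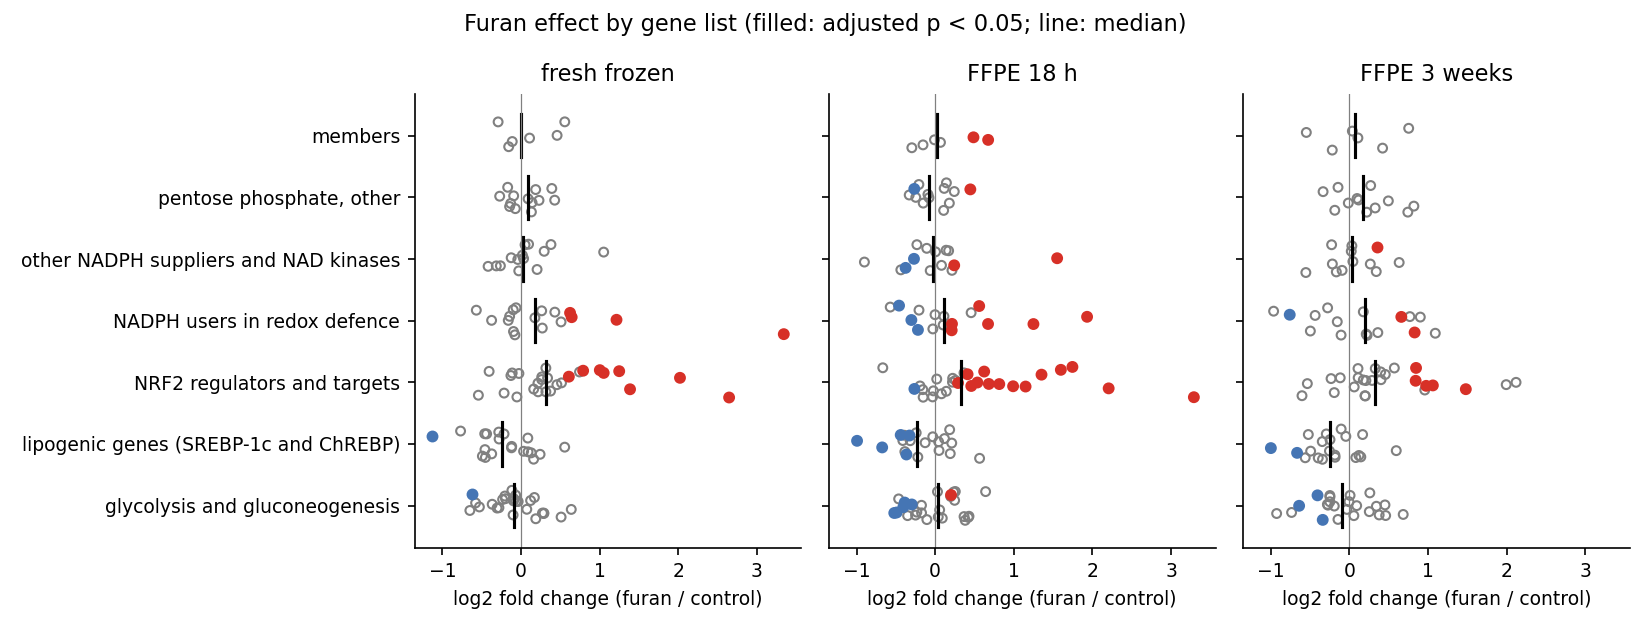
The log2 fold change of furan against control (horizontal axis) for every tested gene of 7 lists (rows) in 3 preservations (panels), filled red (higher) or blue (lower) where adjusted p was below 0.05, with a line at each list's median. NRF2 genes have medians of 0.32 to 0.33 and lipogenic genes of -0.23 to -0.25, and Slc7a11 in FFPE 3 weeks, with no count in control, is not drawn.

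The genes most like each of the 6 were found by Pearson's r over the 24 libraries of 8 animals, after the mean of each preservation had been removed, among 10616 genes. Libraries of 1 animal share that animal, so r is a description. Pgd was closest to Ces2c (r = 0.92), a carboxylesterase, Slc10a2 (0.90), a bile acid carrier, and Ctps (0.89), CTP synthase. Me1 was closest to Abcd3 (0.88), a peroxisomal fatty acid carrier, and its list also held Crebrf (0.83). Idh1 was closest to Acat1 (0.87), Pcbd1 (0.86) and Tmem68 (0.86).

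G6pdx was closest to Kctd15 (0.83), Ssrp1 (0.81) and Capzb (0.80). Taldo1 was closest to Sympk (0.89), Atp9a (0.85) and Rxrb (0.83), and Tkt to Pja1, Fam73b and Mrpl14 (0.87 each). No member was among the 3 genes closest to another. Between members the r was highest for Taldo1 with Tkt (0.53) and Me1 with Idh1 (0.52), and for G6pdx with Pgd it was 0.049. All 24 libraries weighed equally in r, also those of FFPE 3 weeks, with 53 to 209 G6pdx and 37 to 273 Pgd counts. Among these, control 04 was the highest control for G6pdx (18.1 CPM) and the lowest for Pgd (5.36 CPM).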

How the data were processed

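The deposited table holds raw counts per gene symbol for 24 libraries, in whole numbers with no normalization found. Per the submitters' processing notes the authors' tools included featureCounts 1.4.4, STAR 2.3.0 and CASAVA 1.8.2, and the build was mm9. Gene models, strand setting and the treatment of multimapping reads are not given in the sources used here. The test was the robust two-sided quasi-likelihood test of edgeR 4.0.16 under R 4.3.3 (filterByExpr, TMM, Benjamini-Hochberg over all genes tested). Each preservation had its own fit of 4 furan against 4 control libraries. CPM values and marker sums use the normalisation of that fit, so they are not on 1 scale across preservations. Preservations, and the difference of the furan effect, were fitted over 16 libraries without the animal as a block. Standard errors were derived from the estimate and its F value. All 6 genes passed the filter on low counts in each fit. Fitted intervals are at 95%.

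Levels per kilobase use the longest coding transcript in GENCODE M21 (GRCm38), a build other than that of the counts. Shares were compared by an exact permutation test. DESeq2 1.42.0, its size factors, no filter, thinning, left-out libraries, a joint fit and the replicate block were alternatives. Fits were tested on simulated data.

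The numbers pair the samples because each liver was divided. Deviations of same-numbered libraries correlated at 0.026 to 0.23 (FFPE 18 h with frozen), 0.024 to 0.11 (FFPE 3 weeks with frozen) and 0.0055 to 0.090 (FFPE 3 weeks with FFPE 18 h).

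The 6 genes and the 15 gene lists were chosen with earlier results of these data known. Text names all 6, fixed partners, and per list up to 6 called genes with the smallest p. Some genes under this rule are not reported here.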

Additional observations from a re-analysis of the deposited data

Results flagged for a closer look

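In 54 groups of 4 libraries (CPM of the 6 genes and the 3 isoenzyme shares), 6 held a library far from the other 3 by Dixon's ratio, and chance flags about 1 in 20. Control animal 03 accounted for 3 of them. Its frozen library was at 85 CPM for Taldo1, against 36.2 to 41.3 in the other controls, and at 84.5 CPM for Me1, against 116 to 119. Its FFPE 3 weeks library was at 24.7 CPM for Taldo1, against 16.7 to 17.5, while its FFPE 18 h library lay among the others.

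Furan animal 41 was flagged in 2 groups. In FFPE 3 weeks its Tkt level was 44.2 CPM, against 27.9 to 28.9 in the other furan animals. In frozen tissue its Me1 share of the malic enzymes was 94.4%, against 90.3 to 91%. The last was the FFPE 18 h library of furan animal 44, where Idh1 made up 76.6% of Idh1 plus Idh2, against 80.2 to 80.7%.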

How the results depend on the processing

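In frozen liver the DESeq2 test called 1004 genes, 1 of the 6 among them, against 392 and 0 in edgeR, and thinning to the smallest library left 37. In FFPE 18 h thinning gave 683 and the joint fit of 24 libraries 305, both with 0 of the 6, against 2208 and 2. In FFPE 3 weeks the joint fit gave 1549 with 1 of the 6, against 335 and 0. Thinning gave 3584 calls for FFPE 18 h versus frozen, against 8006.

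Leaving out 1 library gave 99 to 1148 calls in frozen tissue (the highest without control 03, the lowest without furan 44, and only control 02 moved the count by under 1.5 times) and 218 to 280 in FFPE 3 weeks (the lowest without furan 44). Of the 6 genes, 0 to 1 were called in frozen and 1 to 4 in FFPE 18 h tissue. Signs turned for small estimates: furan in frozen tissue, Taldo1 -0.28 to 0.22, Tkt -0.42 to 0.014, Me1 -0.33 to 0.014 and Idh1 -0.016 to 0.21; in FFPE 18 h, Taldo1 -0.082 to 0.063 and Idh1 -0.012 to 0.11; in FFPE 3 weeks, Taldo1 -0.096 to 0.19, and the G6pdx share difference -0.41 to 1.54 points. Between preservations, G6pdx ran from -0.056 to 0.096, -0.025 to 0.25 and -0.11 to 0.25, and Me1 from -0.043 to 0.097 (FFPE 3 weeks versus frozen). Thinning turned Taldo1 with furan in FFPE 3 weeks (-0.0092) and Me1 in FFPE 3 weeks versus FFPE 18 h (0.053).

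With the replicate block, G6pdx turned in FFPE 3 weeks versus FFPE 18 h (-0.010), as did the difference of the furan effect for Tkt (-0.072, FFPE 18 h versus frozen) and G6pdx (0.12, FFPE 3 weeks versus frozen). Other than that of Pgd given in the report, the block changed no call for the 6 genes. Transcript length was taken after the data were seen in a second way, the longest of any type, and list counts without frozen control 03 were added likewise. The cause of these changes was not tested.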
